A study of Mus musculus with 3 samples.

Results

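The genes described here encode collagens, laminins, integrins, matrix proteases with their inhibitors, and the enzymes that modify and cross-link collagen. They were taken from the gene names in 2 chromatin immunoprecipitation sequencing (ChIP-seq) peak lists by the start of the symbol, which must be that of a collagen chain (Col), a laminin chain (Lama, Lamb, Lamc), an integrin subunit (Itga, Itgb), a matrix metalloproteinase (Mmp), a tissue inhibitor of metalloproteinases (Timp), an Adam or Adamts protease, or a Lox, P4ha or Plod enzyme. Of 16428 genes named as the closest gene of at least 1 peak, 139 matched. The Smad3 list named 134 of them, the JMJD3 list 117, and both lists 112. Col4a3bp, a ceramide transport protein, and Loxhd1 matched only by the letters of their symbols and were kept as a group of their own.

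The peaks came from neural stem cells of the cerebral cortex of wild-type mouse embryos at E12.5, grown on laminin-coated dishes in medium with EGF and FGF and treated with TGFb at 5 ng/ml, for 30 minutes in the case of the immunoprecipitations. Endogenous Smad3 was precipitated in 1 library and endogenous JMJD3 in 1 library, both with TGFb, and a library of input DNA, for which no antibody was used, was not analysed here. All cells shared genotype, growth factors and treatment, so the lists show where peaks were called in treated cells and no effect of TGFb can be read from them. No value below has a replicate error, no test was made, and intervals are exact Clopper-Pearson 95% intervals that cover counting error only.

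Collagens and laminins build the fibres and sheets of the extracellular matrix, integrins are the paired alpha and beta subunits by which cells grip it, and metalloproteinases cut it under the restraint of their inhibitors. In the embryonic cortex, radial glia, the neural stem cells, anchor to the basement membrane at the brain surface through integrins and laminins. TGF-beta is stored in the matrix in a latent form that some integrins release. Its receptors phosphorylate Smad3, a transcription factor long known for driving matrix genes in fibroblasts. JMJD3 is a histone H3 demethylase encoded by Kdm6b.

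Promoter peaks were less frequent among these genes than among all genes named in the lists. A promoter peak is a peak that names the gene and whose midpoint lies within 1 kb of that gene's transcription start site (TSS). A Smad3 promoter peak was listed for 79 of the 139 genes, or 56.8% (48.2 to 65.2), against 73.1% of all 16428 named genes. A JMJD3 promoter peak was listed for 54, or 38.8% (30.7 to 47.5), against 57.1%. Both were listed for 52 genes, or 37.4% (29.4 to 46.0), against 55.1%, and neither for 58 genes, or 41.7% (33.4 to 50.4), against 25.0%. The share with a Smad3 promoter peak alone, 27 genes or 19.4% (13.2 to 27.0), was near the 17.9% of all named genes, and so was the share with JMJD3 alone, 2 genes or 1.44% against 1.95%. A gene had to have at least 1 peak somewhere to be counted in either share.

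The role groups differed in these counts. ADAMTS proteases and ADAMTS-like proteins, secreted enzymes and relatives that act on proteoglycans and procollagens, had a Smad3 promoter peak in 20 of 22 genes, or 90.9% (70.8 to 98.9). All 4 metalloproteinase inhibitors had one. Among structural genes the counts were 7 of 11 fibrillar collagens, 3 of 10 basement membrane and network collagens, 6 of 17 other collagens and 6 of 11 laminins. The cell surface receptors had 9 of 14 integrin alpha and 4 of 8 integrin beta subunits. Matrix metalloproteinases had 6 of 13, ADAM proteases 8 of 17 and the collagen-modifying and cross-linking enzymes 5 of 10. In the modifying enzymes all 5 genes with a Smad3 promoter peak also had a JMJD3 promoter peak, and 12 of the 20 ADAMTS genes and 2 of the 4 inhibitors had both. Over all named genes 75.4% of those with a Smad3 promoter peak also had JMJD3, beside 65.8% (52 of 79) for the set, and no difference between groups was tested. The intervals of these small groups are wide and mostly overlap.

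**Figure D1:**
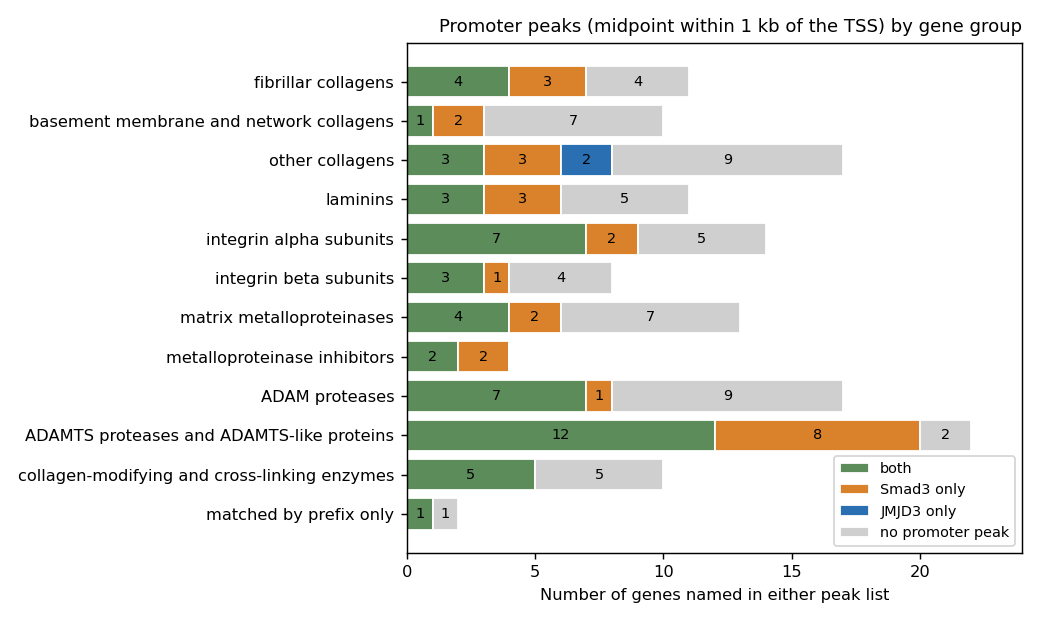
Horizontal bars give the number of genes in each role group (x axis, genes named in either list), split into those with promoter peaks in both lists, in 1 list alone and in neither. The ADAMTS bar has 2 genes of 22 without a promoter peak, the basement membrane and network collagen bar 7 of 10, and the 2 genes with JMJD3 alone sit among the other collagens.

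The deposited lists give each peak a position but no height or read number, so the depth is unknown and the width of a region was used to describe it, peaks of 1 list at most 10 bp apart being joined into a region. Where a gene had both promoter peaks, its widest Smad3 region had a median width of 866 bp and its widest JMJD3 region 820 bp, beside 820 and 860 bp over all 9059 named genes with both. The Smad3 region was the wider in 28 of the 52 genes, or 53.8%, and the JMJD3 region in 23. Over all named genes with both the Smad3 region was the wider in 41.2%, and the difference was not tested. In 51 of the 52 genes the 2 widest regions shared at least 1 bp, a share that was not computed over all named genes with both. The exception was Itga5, the fibronectin receptor subunit, whose widest Smad3 region of 881 bp lay inside the gene, at chr15:103195851-103196731 on mm9, and whose JMJD3 region of 800 bp spanned the TSS. Itga5 also had a Smad3 promoter peak with its midpoint at -136 bp, upstream of the TSS. Promoter peaks of Itga5 in each list did overlap the other list, so only its widest regions were apart. Genes with Smad3 alone had narrower Smad3 regions, with a median of 380 bp, as had all named genes of that kind, with 550 bp.

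**Figure D2:**
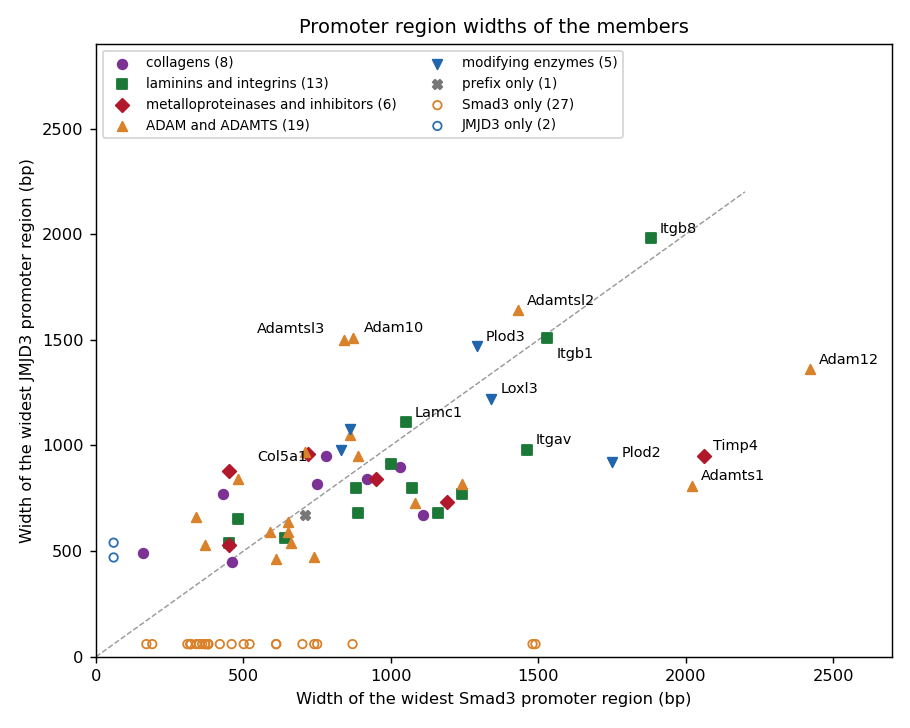
Each filled point is 1 of the 52 genes with both promoter peaks, placed by the width in bp of its widest Smad3 region (x axis) and of its widest JMJD3 region (y axis), with the dashed line marking equal widths; open circles near the axes are genes with a region in 1 list only, set at a fixed small offset. Itgb8 lies at 1880 and 1980 bp, Adam12 and Timp4 lie far to the Smad3 side, and most genes with Smad3 alone have regions under 1000 bp.

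The promoter sequences below are those of the gene with the widest regions in both lists, by the lower of its Smad3 and JMJD3 width percentiles, in each of 6 families among genes with an entry in the RefSeq promoter table. They are shown because both proteins had a region over the TSS of each of these genes. Each runs 5′ to 3′ along the gene, from 250 bases before to 50 bases after the RefSeq start, on GRCm38.p6, a later build than the mm9 of the peak lists, so that no peak edge can be placed on it. Capitals mark GTCT or its complement AGAC, the half-site that Smad3 is known to contact, and GGCGCC, a GC-rich Smad site. The windows are chr2:27886175-27886474 on the plus strand for Col5a1, chr2:180225810-180226109 on the minus strand for Lama5, chr12:119238227-119238526 on the minus strand for Itgb8, chr6:115252156-115252455 on the minus strand for Timp4, chr2:27079129-27079428 on the plus strand for Adamtsl2 and chr5:136986769-136987068 on the plus strand for Plod3.
Col5a1: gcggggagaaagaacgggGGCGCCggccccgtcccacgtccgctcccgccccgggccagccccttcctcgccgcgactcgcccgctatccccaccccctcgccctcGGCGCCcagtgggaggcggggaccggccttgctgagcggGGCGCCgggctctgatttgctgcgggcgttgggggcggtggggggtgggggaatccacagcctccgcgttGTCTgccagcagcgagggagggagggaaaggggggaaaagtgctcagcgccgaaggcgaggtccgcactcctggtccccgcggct
Lama5: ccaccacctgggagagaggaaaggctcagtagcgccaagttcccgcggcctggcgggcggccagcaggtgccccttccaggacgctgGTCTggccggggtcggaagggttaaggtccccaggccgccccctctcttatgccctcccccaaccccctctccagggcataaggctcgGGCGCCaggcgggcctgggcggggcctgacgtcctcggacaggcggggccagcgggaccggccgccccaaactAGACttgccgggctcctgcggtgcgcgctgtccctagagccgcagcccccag
Itgb8: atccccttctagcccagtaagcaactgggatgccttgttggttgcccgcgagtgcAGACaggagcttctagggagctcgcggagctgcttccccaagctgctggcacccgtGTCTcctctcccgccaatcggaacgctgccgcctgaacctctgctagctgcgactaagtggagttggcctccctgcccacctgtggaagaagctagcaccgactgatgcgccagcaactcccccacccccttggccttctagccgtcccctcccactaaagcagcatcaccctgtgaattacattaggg
Timp4: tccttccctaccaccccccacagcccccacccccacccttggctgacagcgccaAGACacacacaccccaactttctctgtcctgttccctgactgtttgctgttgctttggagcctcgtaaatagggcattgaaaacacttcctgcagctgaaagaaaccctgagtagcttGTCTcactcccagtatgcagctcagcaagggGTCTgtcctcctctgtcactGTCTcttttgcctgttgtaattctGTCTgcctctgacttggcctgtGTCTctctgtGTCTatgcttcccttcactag
Adamtsl2: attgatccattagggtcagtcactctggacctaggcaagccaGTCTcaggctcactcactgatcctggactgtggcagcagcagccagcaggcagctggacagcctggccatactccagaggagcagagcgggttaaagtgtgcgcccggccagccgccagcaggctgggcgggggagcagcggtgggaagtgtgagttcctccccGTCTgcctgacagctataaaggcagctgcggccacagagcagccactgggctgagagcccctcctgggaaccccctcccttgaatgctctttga
Plod3: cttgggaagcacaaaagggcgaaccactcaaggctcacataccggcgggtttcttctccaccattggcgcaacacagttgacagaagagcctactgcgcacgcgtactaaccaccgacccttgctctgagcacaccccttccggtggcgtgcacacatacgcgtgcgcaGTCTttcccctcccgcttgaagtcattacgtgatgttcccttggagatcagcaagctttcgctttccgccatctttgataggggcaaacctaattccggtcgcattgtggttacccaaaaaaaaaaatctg

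Timp4 held 7 matches to GTCT on either strand, the most of the 6, and Col5a1 held 1 GTCT and 3 GGCGCC. Lama5 had 2 and 1 of these, Itgb8 and Adamtsl2 2 GTCT each and Plod3 1. A GTCT on either strand is common, being present in 88.0% of the 32817 promoters of the table, while GGCGCC is in 11.9%. The palindrome GTCTAGAC, found in 0.213% of promoters, the AP-1 motif TGANTCA, found in 7.81%, and the TEAD motif GGAATG, found in 14.7%, matched none of the 6. The E-box motif CANNTG, present in 72.3% of promoters, matched 5 of them, all except Col5a1. A match is a run of letters and not a measured site. The span of Timp4 in the peak lists is 6235 bp and the RefSeq span 7762 bp, so the printed start of that gene may not be the one from which the authors' distances were taken. Only 90 of the 139 genes had an entry, so no motif count was made over the whole set.

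Among the fibrillar collagens, which form the banded fibres of connective tissue, promoter peaks of both proteins lay at Col5a1, Col5a3, Col11a1 and Col11a2, chains of types V and XI, and at no other of the 11 genes. Col5a1, whose type V chain governs fibril diameter, had a 780 bp Smad3 region over its TSS, on chromosome 2, and 950 bp for JMJD3. Col11a1 had 750 and 820 bp and Col11a2 920 and 840 bp. The 2 chains of type XI collagen thus had similar widths in both lists. Col5a3 had the narrowest Smad3 promoter region of all 79 genes with one, 160 bp, beside a JMJD3 region of 490 bp.

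Type I collagen, the main fibre of skin and bone, is made of the products of Col1a1 and Col1a2. Col1a1 had 501 bp for Smad3, with its nearest midpoint 735 bp inside the gene, and no JMJD3 peak of any kind. Col1a2 had no promoter peak, and the closest midpoints stood at 44746 bp for Smad3 and at -59639 bp for JMJD3, where a negative distance is upstream of the TSS. Col3a1 and Col2a1, the chains of type III and cartilage type II collagen, and Col24a1 also had none, with the closest Smad3 midpoint at -219945 bp from the TSS of Col3a1 and 2179 bp inside Col2a1. Col27a1 with 611 bp and Col5a2 with 360 bp had Smad3 alone. For Col27a1 a JMJD3 midpoint lay 1348 bp inside the gene, just outside the window.

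Basement membrane collagens form the sheet on which epithelia and radial glia rest. The type IV genes stand in head-to-head pairs, and their promoter peaks followed the pairs unequally. Col4a1 and Col4a2, the pair used in every basement membrane, start 2 bp apart on chromosome 8. Each peak names only its closest TSS, and the regions that span this shared promoter, 431 bp for Smad3 and 770 bp for JMJD3, were credited to Col4a1. Col4a2 is counted as having no promoter peak for that reason, and it was the only gene of the 58 without one that had a peak of either list within 1 kb of its listed TSS. Counting it would give 80 genes with Smad3, 55 with JMJD3 and 53 with both.

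The other pairs had fewer peaks. Col4a3 and Col4a4, chains of the kidney glomerulus, start 71 bp apart and had no promoter peak, the nearest Smad3 peak of Col4a3 lying 47763 bp inside it. Col4a5 had 370 bp for Smad3 and no JMJD3 peak, and Col4a6, whose start is 1342 bp away, had no promoter peak. Col18a1, the source of endostatin, had Smad3 alone with 380 bp, while its relative Col15a1 and the network collagens Col8a1 and Col8a2 had no promoter peak. Col7a1 and Col10a1 were not named by any peak.

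The other collagens include those that decorate fibrils and those that span the membrane. Both promoter peaks were listed for Col9a3, with 1030 bp for Smad3 and 900 bp for JMJD3, for Col16a1, with 1110 and 671 bp, and for Col9a2, with 460 and 450 bp. These chains belong to collagens that sit on the surface of other fibrils, as do Col9a1, Col14a1 and Col20a1, which had no promoter peak. Col12a1, also of that class, had 870 bp for Smad3 and no JMJD3 promoter peak, though a JMJD3 midpoint lay 1399 bp inside the gene. Of the transmembrane collagens, Col23a1 with 350 bp and Col25a1 with 321 bp also had Smad3 alone, and Col13a1 and Col17a1 had no promoter peak.

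Both genes with a JMJD3 promoter peak alone were further fibril-associated collagens. Col22a1, known from muscle-tendon junctions, had a JMJD3 region of 540 bp with a midpoint 6 bp from the TSS. Col19a1 had one of 470 bp whose midpoint lay 740 bp inside the gene. Neither JMJD3 peak overlapped a Smad3 peak, and the nearest Smad3 peaks lay 15231 bp inside Col22a1 and at -24350 bp from the TSS of Col19a1. The latter belongs to a Smad3 region of unusual width, 4820 bp, described below. Collagen VI, a microfibril collagen, was represented by Col6a1, Col6a4 and Col6a6, none with a promoter peak.

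Laminins are cross-shaped trimers of an alpha, a beta and a gamma chain. Lamc1, whose gamma chain is in most laminins, had promoter regions of 1051 bp in the Smad3 list and 1111 bp in the JMJD3 list, at chr1:155179561-155180611 and chr1:155179511-155180621 on mm9, spanning the TSS from about the same points. Lama5, an alpha chain of embryonic basement membranes, had 1160 bp for Smad3 and 680 bp for JMJD3, and Lama4, best known from vessel walls, 481 and 650 bp. Their usual beta partners had Smad3 alone, Lamb1 with 750 bp and Lamb2 with 460 bp, as did Lama3 with 370 bp. For Lamb1 the nearest JMJD3 midpoint lay 2404 bp inside the gene. Lama1, Lama2, Lamb3 and Lamc3 were among the chains without a promoter peak.

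Among integrin beta subunits the regions of Itgb8 and Itgb1 were the widest. Itgb8, which pairs with the alpha v subunit in the receptor that releases latent TGF-beta in the developing brain, had 1880 bp for Smad3, at chr12:120476211-120478090 on mm9, and 1980 bp for JMJD3, at chr12:120476211-120478190. They share their edge inside the gene, 538 bp past the TSS, and begin at -1341 and -1441 bp. By the lower of its Smad3 and JMJD3 width percentiles, 97.4 among all named genes with such peaks, Itgb8 led the 52 genes. Itgb1, the common partner of most matrix-binding alpha subunits, had 1530 and 1510 bp. Itgb5, a vitronectin receptor subunit, had 1070 and 800 bp.

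The other beta subunits are those of platelets, leukocytes and epithelia. Itgb3 had a narrow Smad3 region of 191 bp alone, and Itgb2, Itgb4, Itgb6 and Itgb7 had no promoter peak. Itgb6, which like Itgb8 forms a receptor that activates latent TGF-beta but in epithelia, nevertheless had 9 Smad3 and 7 JMJD3 regions farther off, the nearest JMJD3 midpoint 1494 bp inside the gene.

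Of the alpha subunits, Itgav, the partner of Itgb8, Itgb5 and Itgb1, had 1460 bp for Smad3 and 980 bp for JMJD3. Itga6, the laminin receptor subunit used as a surface marker of neural stem cells, had 1240 and 770 bp. Itga1, a collagen receptor subunit, had 1001 and 910 bp, and its neighbour Itga2, with a like role, had 1480 bp for Smad3 and no JMJD3 promoter peak. The Itga2 region was among the widest of the 27 genes with Smad3 alone, second to Adamts4. Itga4, Itga5, Itga7 and Itga9 had both, measuring 890, 881, 450 and 640 bp for Smad3, in that order, and 680, 800, 540 and 560 bp for JMJD3. Itga8 had Smad3 alone with 420 bp. Subunits of leukocytes and platelets, Itgal, Itgae and Itga2b, had no promoter peak, nor had the laminin receptor subunit Itga3 and the collagen receptor subunit Itga11.

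**Figure D3:**
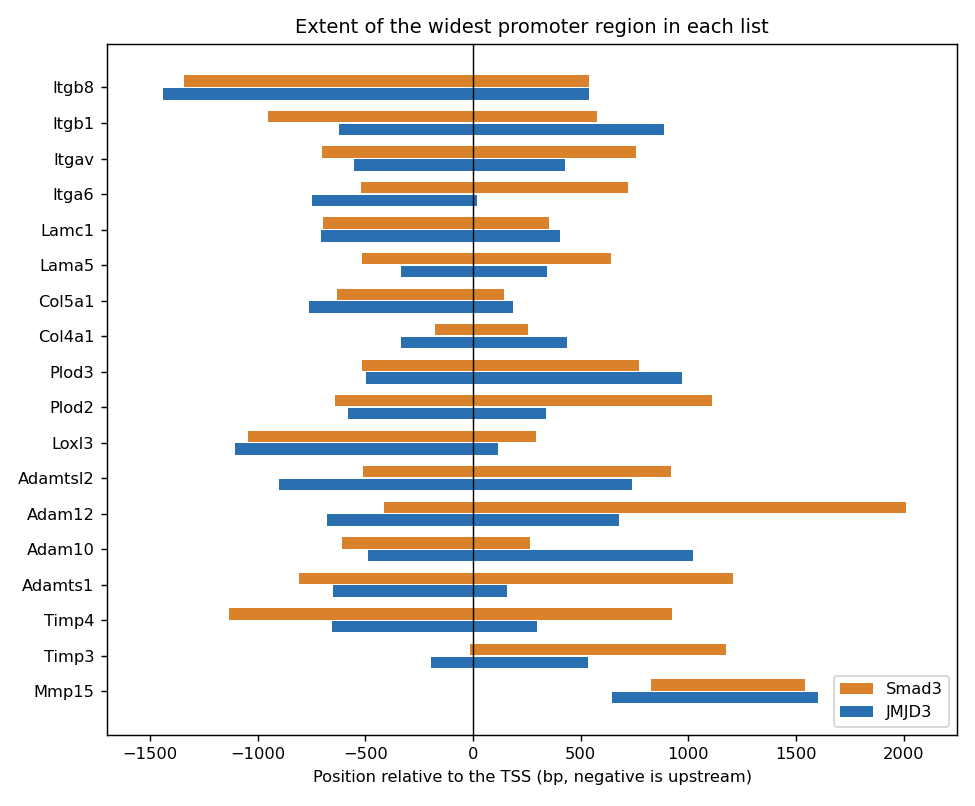
Bars show where the widest Smad3 (orange) and JMJD3 (blue) promoter regions of selected genes begin and end, in bp from the TSS given in the lists (vertical line; negative values are upstream). The Itgb8 bars end together at 538 bp inside the gene. The Adam12 Smad3 bar reaches 2009 bp inside while its JMJD3 bar stops at 679 bp. The widest Mmp15 regions lie wholly inside the gene, but Mmp15 also had peak midpoints at 1 bp for Smad3 and -69 bp for JMJD3.

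Matrix metalloproteinases had 4 genes with both promoter peaks. Mmp28 had 950 bp for Smad3 and 840 bp for JMJD3. The others are membrane-anchored enzymes, Mmp15 with 720 and 960 bp, Mmp17 with 451 and 880 bp and Mmp24 with 450 and 530 bp. Mmp16, a further membrane-anchored enzyme, and Mmp21 had narrow Smad3 regions alone, of 380 and 381 bp. The gelatinases Mmp2 and Mmp9, the secreted enzymes that cut basement membrane collagen, had no promoter peak. Mmp2 was close to the limit, with a Smad3 midpoint at 1241 bp and a JMJD3 midpoint at 1331 bp inside the gene. Mmp14, the membrane-anchored activator of Mmp2, was named by no peak of either list, 1 of 10 metalloproteinase genes of the RefSeq table for which this held. How many genes of the whole table this held for was not computed.

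The tissue inhibitors of metalloproteinases all had a Smad3 promoter peak. Timp4, the brain and heart inhibitor, had 1 of the widest Smad3 regions of the set, 2060 bp, beside a JMJD3 region of 951 bp. Timp3, which also restrains ADAM and ADAMTS enzymes, had 1190 and 731 bp. Timp2 and Timp1 had Smad3 alone, with 521 and 310 bp, and for Timp2 the nearest JMJD3 midpoint lay 1591 bp upstream. The 4 inhibitors thus divide into 2 with both proteins and 2 with Smad3 alone and narrower Smad3 regions.

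ADAM proteases are membrane-bound enzymes that shed surface proteins. Adam12 had the widest Smad3 promoter region of all 139 genes, 2421 bp at chr7:141414771-141417191 on mm9, with a JMJD3 region of 1360 bp at chr7:141416101-141417460. Adam10, the sheddase of Notch receptors, showed the opposite order, with 871 and 1510 bp. Adam17, the sheddase of TNF and EGF family ligands, had 1240 and 820 bp. Adam9 had 890 and 951 bp, Adam15 860 and 1050 bp, Adam19 650 and 640 bp and Adam22 650 and 590 bp. Adam23, like Adam22 a non-enzymatic adhesion protein of the brain, had Smad3 alone with 380 bp. The 9 ADAM genes without a promoter peak include Adam1b, Adam21, Adam24, Adam30 and Adam6a, whose family members are known mostly from testis, and 17 of the 34 ADAM genes in the RefSeq table were named by no peak.

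By the lower of the Smad3 and JMJD3 width percentiles, 91.9, the ADAMTS group was led by Adamtsl2, an enzymatically inactive relative that binds fibrillin microfibrils, with 1430 bp for Smad3 and 1640 bp for JMJD3. Adamtsl3 had 840 and 1500 bp. Adamts1, 1 of the enzymes that cut brain proteoglycans such as versican and brevican, had 2020 bp for Smad3 and 810 bp for JMJD3. Adamts6 had 710 and 970 bp. The other 8 genes with both were Adamts7, Adamts10, Adamts12, Adamts14, Adamts17, Adamts20, Adamtsl1 and Adamtsl5, ranging from 340 to 1080 bp in the Smad3 list and from 461 to 840 bp in the JMJD3 list.

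Of the 27 genes with Smad3 alone, 8 were ADAMTS genes. Adamts4 and Adamts5, the aggrecanases, had 1490 and 740 bp for Smad3 and no JMJD3 promoter peak. Adamts4 had the widest region of the 27. Adamts8 and Adamts15, divergent neighbours whose starts lie 20110 bp apart, had 700 and 321 bp. Adamtsl4 had 611 bp, and Adamts3, Adamts16 and Adamts19 had 320, 340 and 171 bp. The Adamts3 JMJD3 midpoint lay 1088 bp inside the gene, closer to the limit than that of any other gene outside it. Adamts2, a procollagen-trimming enzyme, and Adamts9 were the members of the group without a promoter peak.

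The collagen-modifying enzymes with promoter peaks had both proteins in each case. Plod1, Plod2 and Plod3, the lysyl hydroxylases, measured 830, 1750 and 1291 bp for Smad3 and 980, 920 and 1470 bp for JMJD3. P4ha1, a catalytic subunit of prolyl hydroxylase, had 861 and 1080 bp. Loxl3, a relative of lysyl oxidase, had 1340 and 1221 bp. In contrast P4ha2, P4ha3, Loxl1, Loxl2 and Loxl4 had no promoter peak, and Lox itself was named by no peak. Some of these peaks lie at promoters shared with another gene that is no matrix gene. Peaks within 1 kb of the listed starts of Loxl3, Plod2 and Plod3 also name Dok1, B430319G15Rik and Znhit1, as they do Tm2d2 at Adam9. Joining took no account of the gene named, so the widths given for these genes may include peaks that name the neighbour. The same holds for the width percentiles, by which Plod3 was chosen for its sequence.

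The peaks that name these genes lay farther from the TSS than peaks at large. Of 982 Smad3 peaks, 17.0% (14.7 to 19.5) lay within 1 kb, against 25.4% of all 98086 Smad3 peaks, and of 650 JMJD3 peaks 13.8% (11.3 to 16.7), against 25.2% of all 63154. Among peaks more than 1 kb from the TSS, called distal here, 52.8% (49.3 to 56.2) of the Smad3 and 52.0% (47.7 to 56.2) of the JMJD3 peaks lay inside the gene they name, against 36.6% and 35.5% of all distal peaks. Past the gene end lay 10.7% and 10.9%, against 23.4% and 23.8%. Here and below, inside, upstream and past the end refer to the transcript listed with each peak. A peak upstream of that transcript can still lie inside a longer transcript of the same gene. These genes are long, with a median span of 51.4 kb against 19.6 kb for all named genes, and the part of gene length in these shares was not tested.

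JMJD3 peaks of these genes mostly overlapped Smad3 near the TSS and less so farther away, as did JMJD3 peaks at large. Within 1 kb of the TSS, 82 of 90 JMJD3 peaks, or 91.1% (83.2 to 96.1), shared at least 1 bp with a Smad3 peak, against 93.4% of all such JMJD3 peaks. The share was 83.9% at 1 to 5 kb, 75.3% at 5 to 50 kb and 67.8% (61.4 to 73.8) beyond 50 kb. Over all JMJD3 peaks it also fell, to 82.4%, 78.0% and 75.2% in the same order. In the other direction, 59.9% (52.0 to 67.4) of 167 Smad3 promoter peaks overlapped JMJD3, against 70.9% of all Smad3 promoter peaks. By role group it was 35.3% (14.2 to 61.7) of 17 peaks at fibrillar collagens and 1 of 5 at basement membrane and network collagens. At ADAM genes it was 13 of 14 and at modifying enzymes 6 of 6, and no difference between groups was tested. Several peaks can belong to 1 gene, so peaks are not independent and the intervals of peak shares may be too narrow. Distal Smad3 peaks overlapped JMJD3 in 57.7% (54.2 to 61.1), beside 56.6% of all. For distal JMJD3 peaks overlapping Smad3 it was 73.0% (69.2 to 76.7), beside 77.3% of all.

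**Figure D4:**
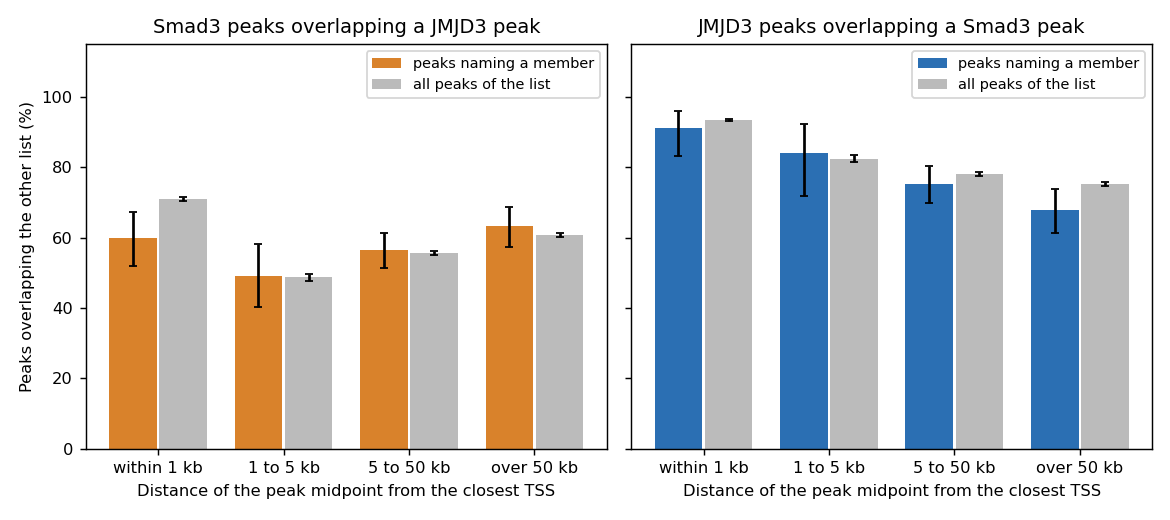
Bars give the percentage of Smad3 peaks that overlap a JMJD3 peak (left) and of JMJD3 peaks that overlap a Smad3 peak (right) by distance of the midpoint from the closest TSS, for peaks naming the genes described here (coloured) and for all peaks of the list (grey), with exact 95% intervals of counting error. The coloured JMJD3 bars fall from 91.1% within 1 kb to 67.8% beyond 50 kb, and the grey ones from 93.4% to 75.2%. The left panel shows the Smad3 bar within 1 kb at 59.9% beside 70.9%.

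In none of the 27 genes with a Smad3 promoter peak alone did that peak overlap a JMJD3 peak, whichever gene it named. The choice of these genes leaves little room for such an overlap, since a JMJD3 peak naming them within 1 kb would exclude them. The same count was not made over all named genes. At least 1 distal JMJD3 region was listed for 19 of the 27, or 70.4%, beside 51.9% of all named genes with a Smad3 promoter peak alone, and the part of the longer gene spans was not tested. Of the 58 genes without a promoter peak, 39 had distal peaks of both lists, 14 of Smad3 alone and 5 of JMJD3 alone. These shares, 67.2%, 24.1% and 8.62%, were near the 68.3%, 24.2% and 7.54% of all named genes without a promoter peak.

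After joining, 624 distal Smad3 regions and 438 distal JMJD3 regions named these genes, a median of 3 and 2 per gene beside 1 and 1 over all named genes. The longer spans of these genes, given above, stand beside these medians, and their part was not tested. The upper quartiles were 7 and 5 regions per gene, beside 4 and 3 over all named genes. At least 1 was listed for 121 and 103 of the 139 genes, and 10 or more for 17 and 6. Smad3 regions outnumbered JMJD3 regions in 84 genes and were outnumbered in 18. The whole Smad3 list is the longer, with 70562 joined regions against 45018 for JMJD3. The 10 genes with the most held 26.8% of the Smad3 and 27.9% of the JMJD3 regions. Shares over all named genes were not computed for these counts. Distal Smad3 regions had a median width of 441 bp and distal JMJD3 regions 610 bp, and 52.6% and 72.8% of them overlapped the other list. These widths and overlaps were not computed over all distal regions.

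Adam12, a gene of 342.0 kb, had the most distal regions in the Smad3 list and in both lists together, 27 of Smad3 and 15 of JMJD3, of which 17 and 10 lay inside the gene. A pair inside the gene was wide in both lists, with 1880 bp of Smad3 at chr7:141217721-141219600 and 1400 bp of JMJD3 at chr7:141217791-141219190 on mm9, the Smad3 midpoint nearest the TSS lying 197349 bp from it. This pair is thus far from the promoter region of Adam12 given above. Timp3 had 17 and 13 distal regions within a span of 49.1 kb and its flanks, with 11 and 8 inside the gene. Itgav had 15 and 9, of which 13 and 5 were intragenic.

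Among the laminins, Lamc1 had 19 Smad3 and 9 JMJD3 distal regions, 17 and 8 of them inside the gene, and all 9 JMJD3 regions overlapped Smad3. The widest distal JMJD3 region of the whole set lay there, 1960 bp at chr1:155155131-155157090 on mm9, over a Smad3 region of 1790 bp at chr1:155155091-155156880. Both lie inside Lamc1, at some distance from its promoter regions.

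Adamts16 had 16 distal regions in each list, 13 of each overlapping the other, with 3 and 1 inside the gene and the rest upstream, out to -534248 bp. Adamts5 was a gene with more JMJD3 than Smad3 regions, 17 against 9, with 2 and 1 of them inside the gene and the farthest at -665045 bp. It was also 1 of the genes whose promoter peak was of Smad3 alone. Col5a1 had 13 JMJD3 and 11 Smad3 distal regions, of which 9 and 10 overlapped the other list. Of its regions, 4 in each list lay inside the gene and the rest upstream. Col18a1 had 14 and 9, Adamtsl1 16 and 8, Adamts17 13 and 8 and Col12a1 11 and 9 for Smad3 and JMJD3. Col12a1 and Col18a1 thus had many distal JMJD3 regions and no JMJD3 promoter peak.

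**Figure D5:**
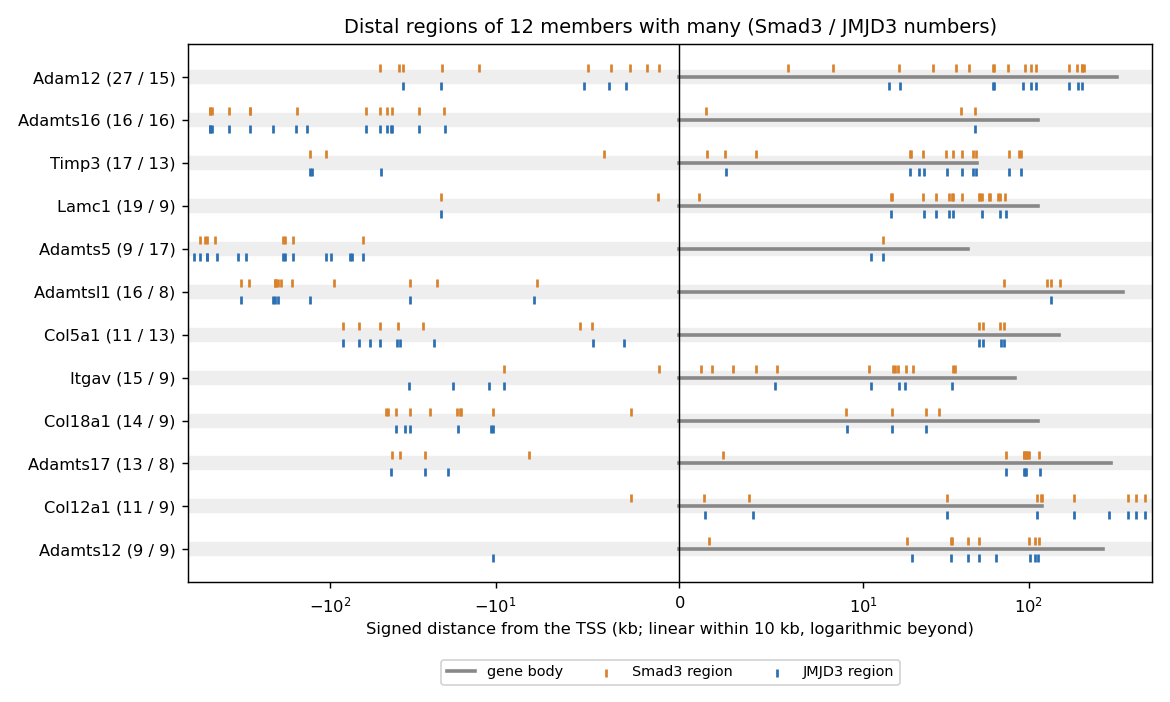
For 12 genes with many distal regions, ticks mark each Smad3 (orange, above) and JMJD3 (blue, below) region by its distance in kb from the TSS its peak names (x axis, linear within 10 kb and logarithmic beyond), with the span of 1 listed transcript as a grey line. Regions of Lamc1, Itgav and Adam12 lie largely along the gene, while those of Adamts16 and Adamts5 lie mostly upstream, and Adamts5 has 17 JMJD3 ticks beside 9 of Smad3.

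The integrin genes with the widest promoter regions also had distal ones. Itgb8 had 9 Smad3 and 5 JMJD3 distal regions, with all 5 JMJD3 regions inside the gene, including 1 of 1520 bp at chr12:120402171-120403690 on mm9 near the gene's end. Itgb1 had 11 and 6, and all 6 JMJD3 regions overlapped Smad3. Over the set, the widest distal Smad3 region was 4820 bp of 6 joined peaks at chr1:24618291-24623110, upstream of Col19a1, and no JMJD3 peak overlapped it. The next widest, at Adam12, measured 1880 bp. The 4820 bp region thus stands apart in width, and whether it reflects binding or read mapping was not tested. Pairs wide in both lists also lay at Adamts6, with 1720 bp for Smad3 at chr13:105308201-105309920 and 1860 bp for JMJD3 at chr13:105307941-105309800, past the gene's end, and at Adamts20, with 1630 and 1420 bp.

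Genes of the same systems whose symbols the rule does not match were counted in the same way. Of 30 other matrix proteins and proteoglycans, 29 were named, 20 with a Smad3 and 16 with a JMJD3 promoter peak, and 15 with both. They include Fn1, fibronectin, with 420 bp in each list, Tnc, tenascin C of the stem cell niche, with 1440 and 1001 bp and 31 and 27 distal regions, and Bcan, brevican, with 1880 and 1410 bp. Of 20 genes of integrin adhesion and signalling, 18 had a Smad3 and 17 a JMJD3 promoter peak and 16 both, among them Ptk2, the focal adhesion kinase, with 781 and 800 bp and Lims1 with 1290 and 1660 bp. Of 22 other proteases, inhibitors and collagen-processing genes, 20 were named, 17 with Smad3, 15 with JMJD3 and 15 with both, including Plat, tissue plasminogen activator, with 1591 and 950 bp. The shares among named genes were 69.0% and 55.2% in the first list, 90.0% and 85.0% in the second and 85.0% and 15 of 20 genes in the third for Smad3 and JMJD3, beside 56.8% and 38.8% for the genes described here. The first list was near the 73.1% and 57.1% of all named genes.

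A promoter peak does not show that a gene is expressed, but the cell type label can be set against peaks at marker genes. All 9 neural stem cell markers had a Smad3 and 8 a JMJD3 promoter peak, where 73.1% and 57.1% of all named genes had one. The counts were 3 and 2 of 5 neuronal, 1 and 1 of 5 mesenchymal, 1 and 1 of 4 named endothelial and 0 and 0 of 4 named microglial or blood markers.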

How the data were processed

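Smad3 and JMJD3 binding was measured by ChIP-seq in 1 library each. Per the submitters' processing notes the tools were CASAVA, Bowtie 0.12.7 and MACS 1.4 and the build mm9. The role of each tool, the thresholds, the use of input and the read depth were not stated in the labels or headers used here. Per the file headers, the authors deposited per peak its position, the signed distance from the closest TSS to the midpoint, and that gene's transcript and symbol. Peaks were listed per library. The files hold no score, so region width replaced the planned peak strength.

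From these, members were found by symbol, peaks of 1 list at most 10 bp apart were joined, and overlap meant at least 1 shared bp (Python 3.11.15, pandas 2.3.3, numpy 2.4.6, scipy 1.17.1). Joining and overlap were tested on simulated data. With 1 library per antibody there was no test. In each role group the text names up to 3 genes with both promoter peaks by the lower width percentile, up to 2 with 1 protein alone, the 2 with the most distal regions, and a fixed list of well-known genes; others were chosen after their values were seen. Some genes that this rule takes are not reported here. The members and lists were chosen with earlier results of these data known. Alternatives were other TSS windows, reciprocal overlap, the widest 50% of peaks, equal numbers of peaks, other joining, leaving out genes matched by prefix only and, chosen after seeing the data, any peak within 1 kb of the TSS. All 139 members matched a RefSeq gene table of GRCm38.p6 by Entrez ID. RefSeq was used only for names, a comparison of gene spans, counts of genes named by no peak and the promoter sequences.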

Additional observations from a re-analysis of the deposited data

How the results depend on the processing

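Of 71 values recomputed under alternatives, 50 stayed within the 95% interval of the reported value, or for counts within 1.5 times of it, and 21 did not. With the widest 50% of peaks the genes with a Smad3, a JMJD3 and both promoter peaks fell to 50, 32 and 29. The promoter overlaps fell to 79.3% of JMJD3 and 49.1% of Smad3 peaks, and the median distal regions per gene from 3 and 2 to 1 and 0. The median widths over the genes of this set with a Smad3 or a JMJD3 promoter peak rose from 710 and 815 to 890 and 951 bp. Reciprocal overlap of 50% gave 72.2% of promoter and 53.2% of distal JMJD3 peaks, and 38.9% and 36.6% of Smad3 peaks. Equal numbers of peaks gave 78.9% and 57.3% for JMJD3 and 68.8% and 75.1% for Smad3. A window of 200 bp gave 97.7% of JMJD3 and 68.1% of Smad3 promoter peaks. Without joining, these median widths were 460 and 636 bp. None of these overlaps, widths and region numbers was recomputed over all peaks or all named genes. In each planned setting the share of these genes with a promoter peak stayed below that of all named genes, for instance 36.0% against 53.3% for Smad3 with the widest 50% and 46.8% against 60.7% with 200 bp. No paired analysis was possible because there is 1 library per antibody and no test. The depth behind each peak is unknown, region width may not follow enrichment, and a gene that no peak names may have one credited to a neighbour.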

Other observations

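Peaks named 2 further collagen genes under older symbols that the choice of genes by symbol does not reach, Emid2, now Col26a1, and Gm7455, now Col6a5. Neither had a promoter peak. The RefSeq table holds 177 coding genes whose symbols match, of which 138 were named under the same symbol and 37 were named by no peak. The share named by no peak was not computed over all coding genes.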
